A study of Arabidopsis thaliana with 4 samples.

Results

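Occupancy of RNA polymerase II (Pol II) was examined in wild-type (WT) leaves by setting 1 Pol II ChIP library against 1 input library, which are 2 of the 4 libraries of the series. Both came from leaves of 21-day-old WT plants (accession Col-0, no transgene or mutation in the labels), grown on soil at 22°C in long days. In chromatin immunoprecipitation (ChIP), protein is fixed to DNA, here with 1% formaldehyde, the chromatin is sheared, and the DNA recovered with an antibody is sequenced. The antibody (Abcam ab817) was raised against the repeats at the C-terminal end of the largest Pol II subunit and was used to capture total Pol II. Input is sheared chromatin that did not go through the antibody step. The leaf holds many cell types, and a strong signal in few cells cannot be told apart from a weak signal in many. For each gene annotated on TAIR10, reads scaled to library size (RPM) of the ChIP library were divided by RPM of the input, and the quotient is given on the log2 scale. Of 37899 nuclear genes, 36287 had at least 20 reads in both libraries and were measured. Among them were 27007 of 27444 protein-coding genes.

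Each condition had 1 library, so no difference has a replicate check and no p-value is given. Intervals in the text are exact 95% intervals for counting error only (Clopper-Pearson). A gene is called higher at 2-fold or more and lower at 0.5-fold or less. The input held 17734005 reads and the ChIP library 37717174, of which 15181698 and 32266083 had a mapping quality above 0 and were used. The libraries came from different lanes, with aligned reads of 50 bp in the input and 75 bp in the ChIP library, so the antibody step cannot be told apart from lane and read length. The check of the label gave a modest concentration of ChIP reads. The 1% of 1 kb tiles with the most reads held 2.61% of ChIP reads and 1.46% of input reads, and the top 10% held 20.3% and 13.5%. Over protein-coding genes the log2 ratio had an SD of 0.50, beside a counting error of 0.12.

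Pol II transcribes protein-coding genes, MIR genes, many long non-coding RNAs and most spliceosomal small nuclear RNA genes, whereas Pol III transcribes tRNA genes. On an active gene Pol II is loaded at the promoter, elongates through the gene body and pauses or terminates near the polyadenylation site. In leaves, photosynthesis genes are among the most abundant sources of mRNA, and genes of defence, wounding and cold are transcribed rapidly after a stimulus.

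Most protein-coding genes were close to the input. The median log2 ratio was 0.06, with quartiles of −0.25 and 0.37. Only 751 genes (2.78%) were called higher and 652 (2.41%) lower, whereas at a 1.5-fold threshold 3409 (12.6%) were higher and 2498 (9.25%) lower. The split depended on the scaling, with 230 higher and 1058 lower after correction for GC content, 9945 and 52 when intergenic windows were set to 0, and 451 higher with reads of any mapping quality. Genes were ranked by the lower bound of the interval. ERF4 (AT3G15210), a repressor of the ethylene response factor family, is at chr3:5121303-5122562, plus strand. It had 151 input reads and 1826 ChIP reads, a fold of 5.69 (log2 2.51, 2.27 to 2.76). DIC2 (AT4G24570), a mitochondrial dicarboxylate carrier gene at chr4:12686459-12687650, plus strand, had 168 and 1989 reads, a fold of 5.57 (log2 2.48, 2.25 to 2.71). HSPRO2 (AT2G40000), a gene of basal resistance to bacteria at chr2:16700490-16702336, minus strand, had 264 and 2834 reads (log2 2.34, 2.15 to 2.52). These 3 genes have a single annotated exon, and their log2 ratios were close on reads of the plus strand (2.64, 2.63 and 2.31) and of the minus strand (2.37, 2.33 and 2.36). After GC correction, described below, their log2 ratios were 1.504, 1.474 and 1.893, and NUDT21 (2.09) and AT4G32020 (2.03) then lay above all 3.

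UBQ10 (AT4G05320), a polyubiquitin gene whose promoter drives many plant transgenes, had 211 input and 2347 ChIP reads (log2 2.39, 2.18 to 2.60), and its paralog UBQ11 (AT4G05050) had 163 and 1674 (log2 2.27, 2.04 to 2.51). Polyubiquitin genes are built of near-identical repeats, and 59.6% of the input reads on UBQ10 and 74.1% of its ChIP reads had a mapping quality above 0. With all reads whatever their quality, the log2 ratio was 2.07 for UBQ10 and 2.22 for UBQ11. The list of the 10 highest genes also held AT4G32020, annotated as a serine/arginine repetitive matrix-like protein (301 and 3140 reads, log2 2.295), AT4G29780, annotated as a nuclease (343 and 3232 reads, log2 2.15), and the nudix hydrolase gene NUDT21 (187 and 1784 reads, log2 2.17). Its other members, AT5G30341 and AT5G06645, rested on 24 and 29 input reads. Only 18.3% and 27.9% of the input reads on them had a quality above 0, against 55.0% and 64.0% of the ChIP reads. With all reads their log2 ratios were 1.16 and 1.43 in place of 2.75 and 2.62.

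The sequences upstream of some of the leading genes are shown because these genes had the highest ratios. Each is the 250 bases before the annotated start on the gene's own strand (RefSeq copy of TAIR10), and capitals mark TTGAC or, on the other strand, GTCAA, the core of the W-box that WRKY transcription factors bind.
ERF4, chr3:5121053-5121302, plus strand: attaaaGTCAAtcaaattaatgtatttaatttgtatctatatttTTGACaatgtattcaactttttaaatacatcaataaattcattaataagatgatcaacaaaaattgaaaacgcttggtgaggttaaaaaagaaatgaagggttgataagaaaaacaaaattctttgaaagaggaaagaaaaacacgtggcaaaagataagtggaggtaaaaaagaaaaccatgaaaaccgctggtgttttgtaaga
DIC2, chr4:12686209-12686458, plus strand: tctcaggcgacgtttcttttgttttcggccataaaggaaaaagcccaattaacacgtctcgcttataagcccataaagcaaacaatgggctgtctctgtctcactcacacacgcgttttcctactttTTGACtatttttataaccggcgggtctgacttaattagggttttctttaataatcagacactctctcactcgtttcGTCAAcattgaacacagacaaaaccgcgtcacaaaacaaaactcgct
HSPRO2, chr2:16702337-16702586, minus strand: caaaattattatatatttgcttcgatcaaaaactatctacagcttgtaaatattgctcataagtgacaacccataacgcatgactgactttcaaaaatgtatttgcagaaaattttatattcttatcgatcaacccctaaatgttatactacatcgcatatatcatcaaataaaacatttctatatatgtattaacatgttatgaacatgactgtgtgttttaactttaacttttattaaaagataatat
NUDT21, chr1:27646744-27646993, minus strand: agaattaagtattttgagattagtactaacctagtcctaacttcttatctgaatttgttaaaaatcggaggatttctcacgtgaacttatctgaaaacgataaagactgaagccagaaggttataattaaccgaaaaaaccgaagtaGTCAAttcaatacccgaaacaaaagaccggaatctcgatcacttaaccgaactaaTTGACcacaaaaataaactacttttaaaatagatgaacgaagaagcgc
UBQ10, chr4:2717727-2717976, plus strand: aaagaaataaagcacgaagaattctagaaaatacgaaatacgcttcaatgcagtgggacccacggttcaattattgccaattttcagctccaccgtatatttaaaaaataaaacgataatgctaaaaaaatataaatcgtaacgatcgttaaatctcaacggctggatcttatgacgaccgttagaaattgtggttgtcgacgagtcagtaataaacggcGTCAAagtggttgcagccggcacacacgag

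The core occurred 2 times upstream of ERF4, DIC2 and NUDT21, 1 time upstream of UBQ10 and 0 times upstream of HSPRO2. It was present in 7 of the 10 highest genes and in 45.0% of the 27006 promoters of measured protein-coding genes with the full 250 bases. The genes called higher on chromosome arms and raised over their flanks had it at 48.3% (185 of 383) and the genes called lower at 46.3% (302 of 652), so these shares were near that of all promoters. The G-box CACGTG, a palindrome, was upstream of 2 of the 10 highest genes and of 6.55% of all, and it was upstream of 6.79% of the 383 genes and 18.2% of the photosynthesis genes. CGCGTT or its reverse AACGCG, the core of a rapid stress response element, was likewise upstream of 2 of the 10 (DIC2 and UBQ11) and of 2.60% of all, and upstream of 3.92% of the 383. A match describes letters in these windows, not a bound site.

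The genes called higher were narrowed by 3 measurements that were added after the values had been seen. Of the 751 genes, 314 had at least 90% of the reads of both libraries with a quality above 0. Of these, 57 were also 2-fold higher after correction for GC content, and 54 of the 57 were in addition 2-fold or more above their own 10 kb flanks. Over all protein-coding genes, 1348 of 27007 (4.99%) were 2-fold above their flanks. The value over flanks starts from the ratio that made the call, so called genes pass it more easily by construction. The 54 genes had a median length of 1520 bp, 27 of them had a single exon (50%, beside 18.5% of all measured protein-coding genes), and 52 lay on chromosome arms. Single-exon genes made up 39.15% of the 751 genes called higher and 36.04% of the 652 called lower. Both ends thus held more of them than all genes did, and a single exon was not particular to high ratios.

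Genes named here from the 54 were picked after their values were seen, and no theme was tested over them. Others of the 54 are annotated as uncharacterized or as transporters such as PUP18, a purine permease. Transcription factors included ERF4, STZ (also ZAT10, a zinc finger repressor, 186 input and 1769 ChIP reads, log2 2.16), RRTF1 (a redox-responsive ERF, 198 and 1640, log2 1.96), MYBR1 (300 and 2179, log2 1.77) and CBF2, a regulator of cold acclimation (148 and 1038, log2 1.72). The CCCH zinc finger gene SZF1 had 386 and 3504 reads (log2 2.09). Both deadenylase genes CAF1a (183 and 1670, log2 2.102) and CAF1b (180 and 1339, log2 1.81), whose products shorten mRNA poly(A) tails, were present. Genes of hormone synthesis included ACS6, an ethylene precursor synthase (321 and 2320, log2 1.77), and LOX3, a lipoxygenase of jasmonate synthesis (571 and 3810, log2 1.65).

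Also among the 54 were genes named for dehydration or cold, ERD7 (357 and 2939 reads, log2 1.95), ERD15 (219 and 1770, log2 1.93), the dehydrins ERD14 (198 and 1474, log2 1.81), ERD10 (231 and 1631, log2 1.73) and COR47 (354 and 2150, log2 1.51), and SRC2 (253 and 2235, log2 2.06). PEN3, an ABC transporter of defence against non-adapted pathogens, had 884 input and 6299 ChIP reads (log2 1.75, 1.64 to 1.85). GRP7, an RNA-binding protein under clock and cold control, had 234 and 1907 reads (log2 1.94), and the catalase gene CAT3 had 541 and 2788 (log2 1.28). Because 1 read was kept per position and strand, ChIP reads had taken 62.6% of the positions of ERF4, 71.5% of DIC2 and 69.3% of HSPRO2. Correction for taken positions gave log2 ratios of 3.03, 3.15 and 2.96, whereas correction for GC content gave 1.504, 1.474 and 1.893.

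Among the 40 genes with the highest lower bound, 12 lay in pericentromeres and 17 had fewer than 80% of their input reads with a quality above 0, and 21 of the 40 belonged to the 54 genes. Over all called genes, 383 of 515 on chromosome arms (74.4%) were 2-fold above their flanks, but only 62 of 236 in pericentromeres (26.3%). In pericentromeres the flanks of called genes had a median log2 ratio of 0.71, whereas on arms they had −0.01. Local values subtract the flanks from the same ratio that made the call. The shares above 2-fold thus follow largely from the call and the flank values. Genes called higher were annotated as uncharacterized in 28.6% of cases and genes called lower in 28.4%, beside 10.3% of all. In pericentromeres these shares were 49.6% and 44.4%, beside 25.9% of all, so both ends held more such genes. The values at the threshold were continuous, with AT1G19550 at 84 and 357 reads just below 2-fold and SLD1 with 1084 ChIP reads just above it.

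At the other end, the 10 genes with the lowest upper bound were mostly AT-rich and uncharacterized. AGL33 (AT2G26320), a gene of the MADS-box family at chr2:11205389-11206287, minus strand, had 132 input and 43 ChIP reads, a log2 ratio of −2.71 (−3.24 to −2.20). LCR33, a cysteine-rich peptide gene of the defensin-like class, had 202 and 87 (log2 −2.303, −2.683 to −1.933). The uncharacterized gene AT2G40004 lies upstream of HSPRO2, from 16704063 to 16704954 of chromosome 2, and had 138 and 54 reads (log2 −2.44), so that a gene at −2.44 and one at 2.34 were neighbours. Of the 10 lowest genes, 7 had a GC content between 23.6% and 28.5%, and the others were AT1G62370 (36.6%), AT3G49796 (41.0%) and AT2G22790 (43.9%), which kept log2 ratios of −2.34, −2.93 and −2.77 after GC correction. For AGL33 the corrected value was −1.11.

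The composition of ERF4, DIC2, AGL33 and MIR857 is shown in 120 bases from the middle of each gene. Each stretch is on the gene's own strand (RefSeq copy of TAIR10), with G and C in capitals. Over the whole gene, GC content was 46.6%, 47.4%, 25.3% and 25.5%, so the stretches show a wider contrast. The 10 highest genes ranged from 37.2% (NUDT21) to 52.2% (AT5G06645), beside a median of 38.8% over all protein-coding genes. The MIR857 precursor is the MIR gene with the lowest upper bound.
ERF4, chr3:5121872-5121991, plus strand, 57.5% GC: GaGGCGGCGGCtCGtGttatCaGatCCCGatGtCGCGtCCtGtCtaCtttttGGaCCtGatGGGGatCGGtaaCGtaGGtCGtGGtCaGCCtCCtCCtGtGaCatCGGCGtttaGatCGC
DIC2, chr4:12686994-12687113, plus strand, 55.0% GC: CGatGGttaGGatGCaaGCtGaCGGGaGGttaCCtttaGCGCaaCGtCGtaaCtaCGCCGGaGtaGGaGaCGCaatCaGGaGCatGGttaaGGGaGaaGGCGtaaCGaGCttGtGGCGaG
AGL33, chr2:11205778-11205897, minus strand, 24.2% GC: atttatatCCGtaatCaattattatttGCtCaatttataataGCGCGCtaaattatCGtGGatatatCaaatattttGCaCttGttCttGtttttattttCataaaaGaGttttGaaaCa
MIR857, chr4:7878313-7878432, minus strand, 20.8% GC: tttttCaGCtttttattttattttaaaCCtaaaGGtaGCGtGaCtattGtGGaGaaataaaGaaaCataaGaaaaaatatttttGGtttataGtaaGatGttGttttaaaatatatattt

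The ratio followed GC content over the whole gene set. Protein-coding genes under 32% GC had a median log2 ratio of −0.71 (n = 611), with 31.6% called lower, and genes of at least 48% GC had 0.89 (n = 231), with 42.4% called higher. Across 27007 genes, Pearson's r with GC content was 0.48, which is a description across genes of the same 2 libraries, since genes are not independent replicates. In 1 kb tiles the median ran from −1.75 at 20 to 22% GC to 1.41 at 50 to 52% GC. Values corrected by these tiles are given beside the groups below, and the corrected median of all protein-coding genes was −0.18. Corrected values of protein-coding genes still fell with GC content, from a median of 0.16 under 32% GC to −0.43 at 48% or more. A corrected group median is thus not fully comparable with −0.18 where the GC content of the group differs. How much of the relation with GC comes from the libraries was not tested.

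**Figure D1:**
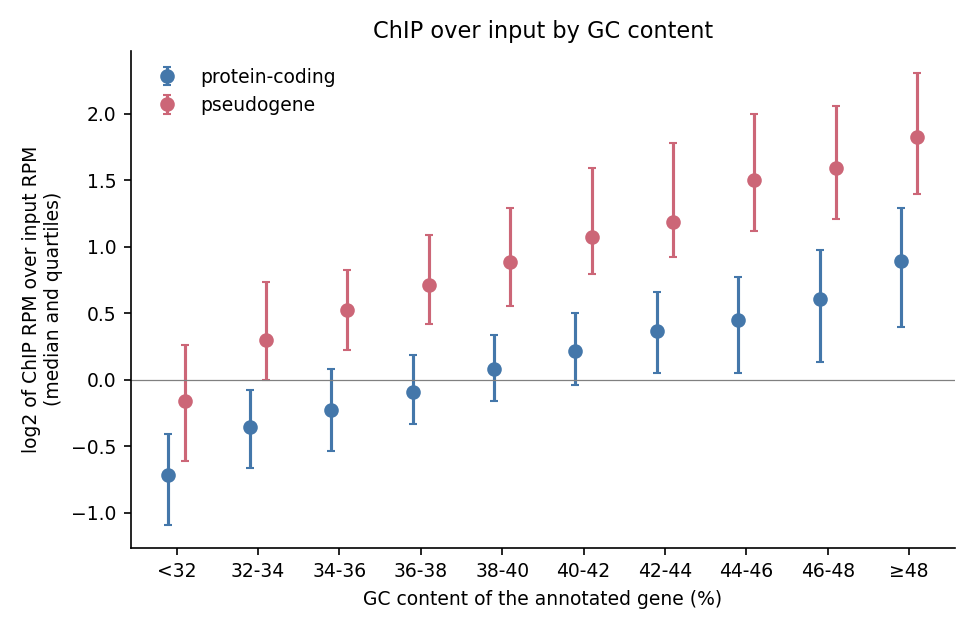
Median log2 ratio of ChIP RPM over input RPM (points) with quartiles (bars) against the GC content of the annotated gene, for protein-coding genes and pseudogenes. Medians lie higher in each successive GC class, from −0.71 to 0.89 in protein-coding genes and from −0.16 to 1.82 in pseudogenes.

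Whether the ChIP signal followed known leaf activity was examined with 9 gene lists. Lists and members were chosen with earlier results of these data known, so their order is a description and not an independent result. The touch, wounding and cold response list stood highest, with a median log2 ratio of 1.301 (0.947 after GC correction), and 6 of its 8 genes were called higher (2.78% of all protein-coding genes). These were ZAT10, CBF2, WRKY40 (249 input and 1586 ChIP reads, log2 1.58), ZAT12 (126 and 698, log2 1.38), WRKY33 (381 and 1886, log2 1.22) and TCH4, a cell wall xyloglucan enzyme (228 and 1011, log2 1.06). The calmodulin-like genes TCH2 and TCH3 had log2 ratios of 0.74 and 0.68. All 8 intervals lay above 0, and after GC correction the values ran from 0.41 to 1.54.

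The genes of photosynthesis lay below the protein-coding median. In the photosystem and light harvesting list the median was −0.31 (−0.72 after GC correction), and 13 of 49 genes were above 0. The photosystem I genes PSAL (231 and 248 reads, log2 −0.99, −1.25 to −0.72) and PSAK (154 and 168, log2 −0.96) were lowest, close to 0.5-fold. The one gene called was LHCB1.2, a light-harvesting protein of photosystem II (86 and 372, log2 1.03, 0.68 to 1.38, and 0.02 after GC correction), whose paralogs LHCB1.1 and LHCB1.3 had 0.16 and 0.23. In the carbon fixation and photorespiration list the median was −0.10 (−0.41 after correction) with 0 of 28 genes called. RBCS1A, the leading Rubisco small subunit gene, had 260 and 347 reads (log2 −0.67, −0.91 to −0.43), and RBCS3B had 199 and 215 (log2 −0.98).

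The 22 housekeeping genes had a median of −0.25 (−0.55 after correction), and UBQ10 and UBQ11 were the 2 that were called. ACT2 (368 and 707 reads, log2 −0.15), GAPC1 (413 and 700, log2 −0.33) and EF1A3 (184 and 260, log2 −0.59) were close to or below the input. The 106 ribosomal protein genes had a median of −0.28 (−0.52 after correction). Of these, 0 were called higher (2.78% of all) and 1 lower (0.943%, beside 2.41% of all). Both groups are transcribed in every growing tissue, and their medians lay below 0.06, the median of all protein-coding genes.

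The seed, gamete and root lists, whose genes are known mainly from other organs, had medians above that of all protein-coding genes. The seed storage and embryo list had a median of 0.68, and 4 of its 14 genes were called (2.78% of all protein-coding genes), all seed albumin genes, with SESA2 highest (102 and 576 reads, log2 1.410, 1.104 to 1.728). The gametes and pollen list had a median of 0.84 with 3 of 8 genes called (beside the same 2.78%), the egg cell genes EC1.2 (35 and 220, log2 1.56), EC1.3 (log2 1.16) and EC1.4 (log2 1.08). The root list had a median of 0.39, from PYK10 at 0.05 to the nitrate transporter gene NRT2.1 at 0.86, with 0 of 11 called. After GC correction these medians were 0.17, 0.0748 and 0.14, beside −0.18 for all protein-coding genes, SESA2 was at 0.41 and EC1.2 at 0.39, while EC1.3 and EC1.4 were at −0.01 and −0.10.

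Of the remaining lists, floral organ identity genes had a median of −0.23 (0.16 after correction), with AG at −0.86 and SEP2 at 0.08, and 0 of 11 were called. Genes of guard cells, epidermis and vasculature had 0.16 (0.01 after correction), from the stomatal gene MUTE at −0.63 to PDF1, an epidermal protein, at 0.86, with 0 of 12 called. The photosynthesis genes RBCS1A (−0.67) and LHCB1.3 (0.23) thus lay below SESA2 and EC1.2, the highest members of their lists, before GC correction. The lowest members of the seed and gamete lists were at −0.34 and −0.50, below LHCB1.3. On this check the whole-gene ratio did not order the lists by their known activity in leaves, and the values are given as enrichment over input only.

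**Figure D2:**
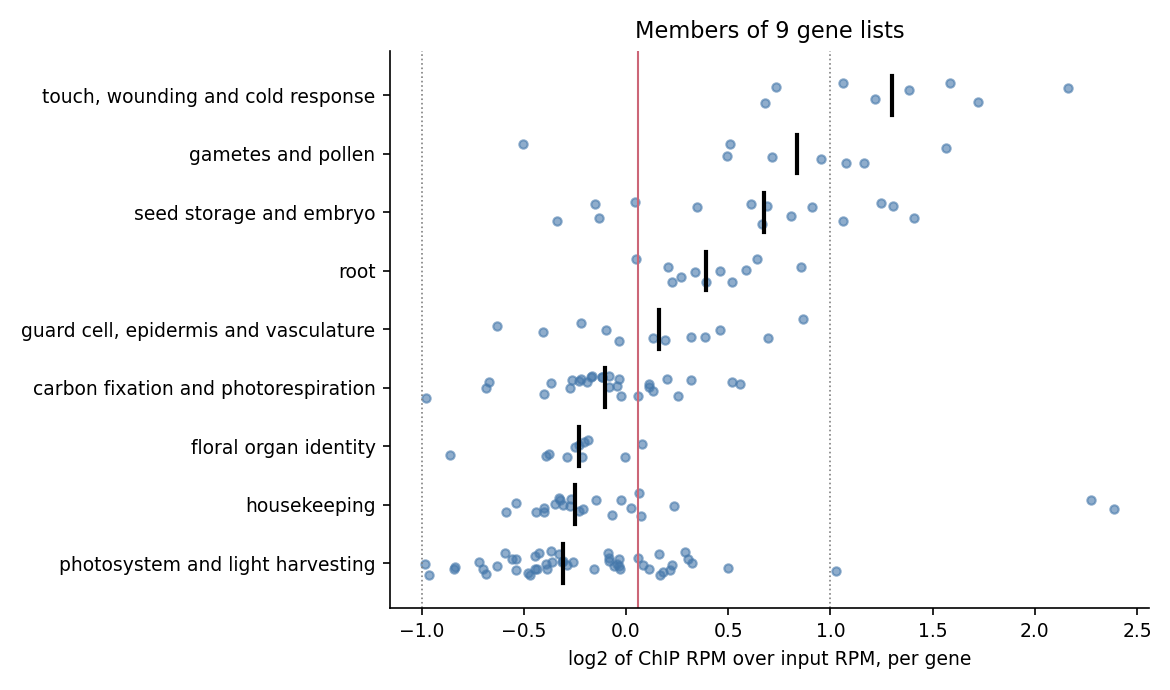
Log2 ratio of ChIP RPM over input RPM for each gene (points) of the 9 lists, with list medians (black bars), the median of all protein-coding genes (red line, 0.06) and 2-fold either way (dotted). The touch, wounding and cold response list reaches from 0.68 to 2.16, whereas photosystem genes lie mostly below 0.

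Larger groups set by product name had medians on both sides of that of all protein-coding genes. F-box genes had a median of 0.38 (n = 638), cytochrome P450 genes 0.36 (n = 218), NLR immune receptor genes 0.35 (n = 150) and pentatricopeptide repeat genes 0.26 (n = 272), and after GC correction these were 0.0933, 0.0202, 0.12 and −0.17, beside −0.18 for all protein-coding genes. Defensin-like genes, which encode small secreted cysteine-rich peptides, had −0.74, with 33 of 106 called lower (31.1%, beside 2.41% of all). Their median GC content was 31.8%. Their corrected median was −0.10, beside 0.16 for all protein-coding genes under 32% GC. Genes with transposon-related products had 0.72 with 24 of 95 called higher (25.3%, beside 2.78% of all), and 0.22 after correction. WRKY genes as a family had −0.01 (n = 72, −0.0862 after correction), with 2 called higher (2.78%) and 4 lower (5.56%). Ethylene response factors, a group added after the values were seen, had 0.06 (n = 111, −0.37 after correction). Of these, 4 were called higher (3.60%) and 5 lower (4.50%), beside 2.78% and 2.41% of all protein-coding genes. WRKY40, WRKY33 and ERF4 were named for their high values, so that they lay above the medians of their families follows from that choice.

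Without GC correction the interior of genes had the highest ratio and the window before the start the lowest. In protein-coding genes of at least 1000 bp, the median log2 ratio was −0.92 in the 200 bp upstream, −0.51 in the first 200 bp, 0.16 in the interior, −0.22 in the last 200 bp and −0.30 in the 500 bp downstream. A profile in 50 bp bins used only those genes that overlap no other annotated gene, with reads lengthened to 200 bp along their own strand. Its summed ratio was lowest at −1.23 between 200 and 150 bp before the start and highest at 0.42 between 550 and 500 bp before the end. After GC correction the window medians were −0.32, −0.66, −0.14, 0.22 and −0.10, so the order of the windows changed. The first 200 bp was then lowest, and the interior lay below the last 200 bp and the downstream window. Reads counted in a 200 bp window also reach outside it, whereas the correction used the GC content of the window alone. The corrected order of the windows is therefore uncertain. No peak at the start was seen in the profile of genes without overlap.

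The genes called higher on arms were high in the windows that make up the whole-gene ratio by which they were chosen. Their medians were −0.06 upstream, 0.82 in the first 200 bp, 1.396 in the interior, 1.02 in the last 200 bp and 0.41 in the 500 bp downstream. In the profile of genes without overlap, their summed ratio was 1.61 in the body at 800 to 850 bp. It was still 0.51 at 450 to 500 bp past the annotated end, where all genes of the profile had −0.26. Differences between the windows inside and outside these genes are also raised by that choice, so they are a description only. In the photosynthesis lists the interior was at −0.01 and the upstream window at −1.29, and in the housekeeping list at −0.01 and −1.41. The genes of the seed, flower, gamete and root lists had 0.37 in the interior and −0.60 upstream.

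**Figure D3:**
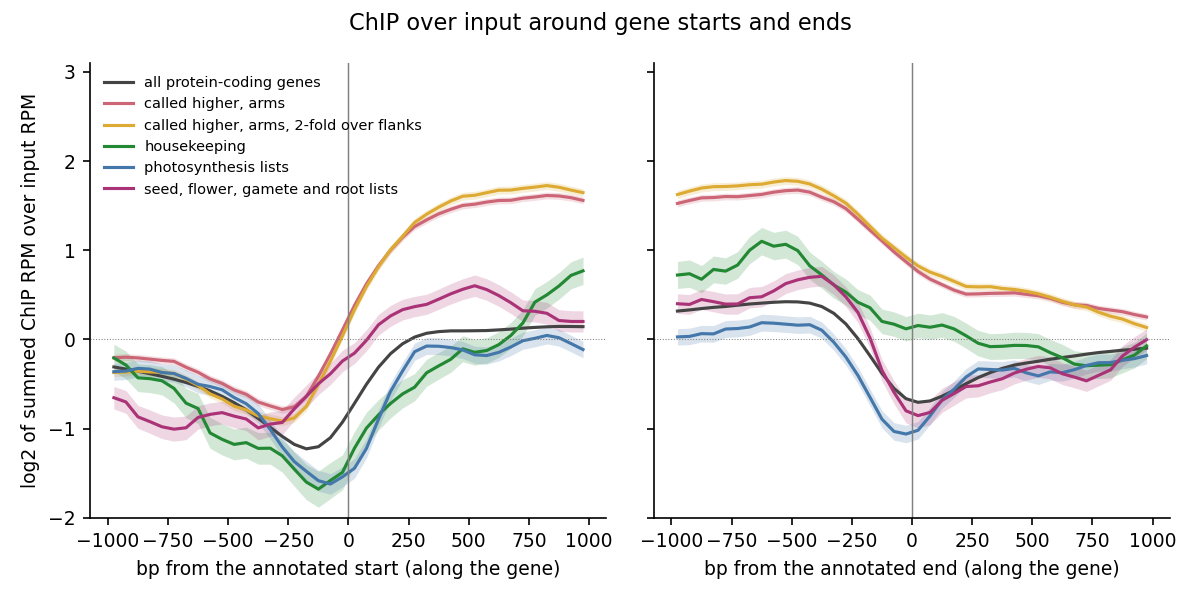
Log2 of summed ChIP RPM over summed input RPM in 50 bp bins around the annotated start (left) and end (right), with shaded 95% counting intervals. Protein-coding genes of at least 1000 bp that overlap no other annotated gene were used, with reads lengthened to 200 bp along their own strand. The ratio is lowest just upstream of the start (−1.23 in all genes) and the genes called higher on arms stay above 0 from their start to 1000 bp past their end.

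Among the other classes, MIR genes were close to the input as a class. Their median log2 ratio was 0.01 (n = 290 of 326, quartiles −0.59 and 0.40), and 15 (5.17%, beside 8.66% of all genes) were called higher and 25 (8.62%, beside 4.40%) lower. Of the 3143 genes behind the 8.66%, 2176 were pseudogenes. On chromosome arms 4.07% of MIR genes were called higher, beside 3.34% of all genes. After GC correction the median was −0.17. In each class the named genes have the highest lower bound or the lowest upper bound. The highest MIR gene was MIR5651 (42 and 335 reads, log2 1.91, 1.44 to 2.41), which overlaps another annotated gene, and the lowest was MIR857 (73 and 25 reads, log2 −2.63, −3.35 to −1.96), which overlaps none. Long non-coding RNA genes had −0.11 (n = 3486), with 155 (4.45%) higher and 578 (16.6%) lower, and −0.26 after correction. Their highest members overlap protein-coding genes among the 54, and reads were counted without regard to strand: AT4G08985 overlaps RRTF1 (100 and 1028 reads, log2 2.27) and AT5G01255 overlaps NHL3 (64 and 683, log2 2.33). The third, AT3G03535, overlaps AT3G17800 (120 and 1079, log2 2.08). The other non-coding RNA genes had −0.27 (n = 683, and −0.15 after correction), and AT3G00330, just downstream of ERF4, was their highest (76 and 627, log2 1.96). Their lowest was AT3G11415 (140 and 27, log2 −3.46).

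Small RNA genes are read against the same shares of all genes (8.66% higher, mostly pseudogenes, and 4.40% lower). Small nuclear RNA genes had a median of 0.12 (n = 75) with 10 (13.3%) higher and 9 (12.0%) lower, and −0.36 after GC correction, led by the spliceosomal U1.5 (30 and 219 reads, log2 1.78, 1.23 to 2.38) and U1.2 (24 and 178, log2 1.80). Small nucleolar RNA genes had −0.58 (n = 266) with 7 (2.63%) higher and 55 (20.7%) lower, and −0.71 after correction. Transfer RNA genes, which Pol II does not transcribe, had −0.78 (n = 366 of 625), and 131 (35.8%) were lower and 1 (0.273%) higher, although their median GC content was 56.1%. With a minimum of 10 reads their median was −0.91 (n = 502). After GC correction it was −2.47 at the main minimum of 20 reads. Median lengths of MIR, small nuclear, small nucleolar and transfer RNA genes were 145.5, 149, 92 and 73 bp, below the length of counted intervals. Reads on them thus reach into the flanks, whereas the correction used the GC content of the gene alone. Corrected values of these classes are therefore uncertain. Windows of 200 bp that lay 1000 bp or more away from every gene had −0.79 over the genome, −1.04 on arms and 0.29 in pericentromeres, where 23.7% of 9668 windows were 2-fold higher or more.

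Pseudogenes carried the highest class signal, at a median of 1.05 with 2176 of 4114 called higher (52.9%, beside 8.66% of all genes) and 23 lower (0.559%, beside 4.40% of all genes). In the pericentromere their median was 1.27 (n = 2633) and on arms 0.67 (n = 1481). After GC correction the medians were 0.63 over the genome, 0.84 in pericentromeres and 0.31 on arms. The annotation places transposable element genes in this class and did not allow them to be separated here. The highest by this rule was AT3G42993 with 92 input and 1715 ChIP reads (log2 3.13, 2.83 to 3.45), where only 14.0% of input reads and 48.4% of ChIP reads had a quality above 0, and with all reads its log2 ratio was 1.34. Over all pericentromeric pseudogenes, 55.9% of input reads and 70.5% of ChIP reads had a quality above 0, and with all reads the median was 0.90. In the 1622 pseudogenes with at least 90% of such reads in both libraries, the median was 0.65 and 314 were called higher (19.4%).

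**Figure D4:**
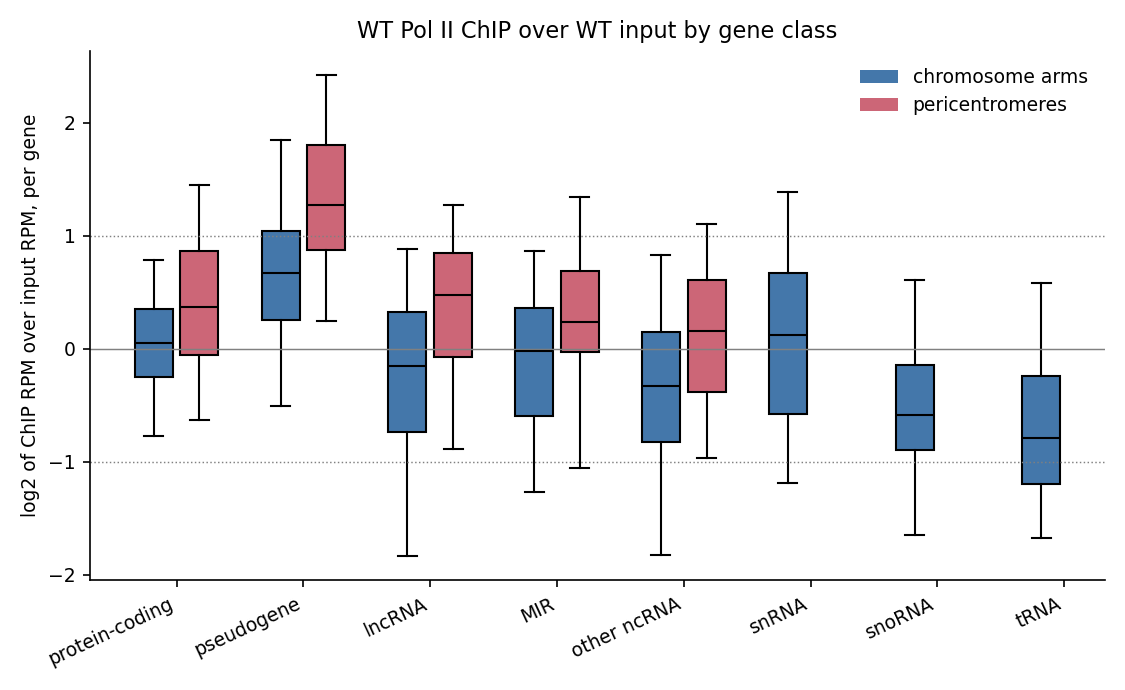
Log2 ratio of ChIP RPM over input RPM per gene by annotated class, on chromosome arms and in pericentromeres (boxes are quartiles with the median, whiskers the 5th and 95th percentile, dotted lines 2-fold either way, and groups under 20 genes are not drawn). Pericentromeric pseudogenes have a median of 1.27 and tRNA genes on arms one of −0.79.

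Along the chromosomes the ratio was highest around the centromeres. Pericentromeres were set from gene density alone, for example from 13000001 to 17000000 on chromosome 1. Of their 100 kb bins, 198 of 203 were above 0, with a median log2 ratio of 0.78 (0.71 after GC correction), and 70 were 2-fold or more. On the arms 264 of 983 bins were above 0, with a median of −0.11, and 0 bins passed 2-fold. The highest bin, on chromosome 1 from 14400001 to 14500000, held 0 protein-coding genes and 16 pseudogenes, with 1450 input and 11583 ChIP reads (log2 1.91). The lowest bin, on chromosome 4 from 17300001 to 17400000, held 23 protein-coding genes, with 14165 and 18048 reads (log2 −0.74).

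Mapping quality moved with this contrast. In the median pericentromeric bin 60.2% of input reads and 70.2% of ChIP reads had a quality above 0, whereas on arms the shares were 96.6% and 97.6%. With all reads the pericentromeric median was 0.50 and the highest bin of chromosome 1 had 0.94. In the 6 pericentromeric bins with at least 90% of such reads in both libraries, a selection added after seeing the values, the median was 0.07, and in the 788 such arm bins it was −0.13. How far the different read lengths contribute to the pericentromeric signal was not tested.

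**Figure D5:**
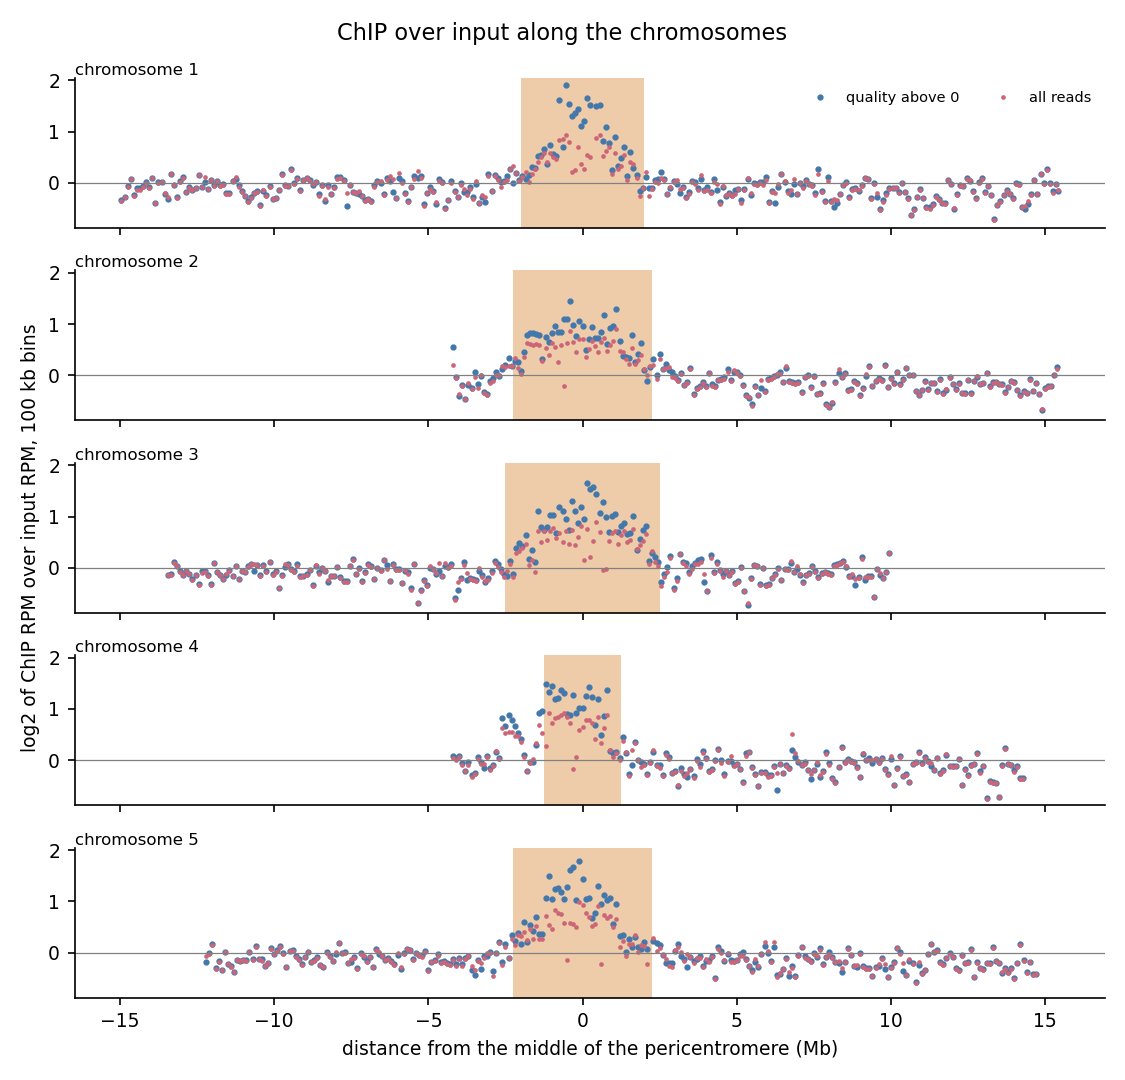
Log2 ratio of ChIP RPM over input RPM in 100 kb bins against the distance from the middle of the pericentromere (shaded) of each chromosome, with reads of mapping quality above 0 (blue) and with all reads (red). Of the bins in the shaded regions 198 of 203 lie above 0, up to 1.91 on chromosome 1, and the values with all reads are lower there.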

How the data were processed

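Bowtie alignment to TAIR10 (−n 2, −M 1) followed trimming, and the authors then discarded duplicates with SAMtools and lengthened each aligned read. The deposited interval files hold 1 line per read, and their score column is the aligner's mapping quality as deposited. Intervals were 175 bp in the input and 200 bp in the ChIP library, extended towards higher coordinates on both strands. The paper states trimming to 50 bp and extension to 200 bp. The 75 bp aligned in the ChIP library and the 175 bp of the input differ from this. Lanes and read lengths of the libraries differed.

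Reads with a score above 0 were counted per gene without regard to strand, divided by the library total, and compared as log2 ChIP RPM over input RPM for genes with at least 20 reads in both libraries. Intervals are exact binomial (Clopper-Pearson, 95%) and cover counting error only. GC correction subtracted the median of 1 kb tiles of like GC content. Local values subtracted the 10 kb flanks. Named genes were the 10 with the highest lower bound and the 10 with the lowest upper bound among protein-coding genes, the extremes of other classes, and list members. Members and lists were chosen with earlier results of these data known. Product-name groups marked as added and the selection of genes with 90% of reads above score 0 were added after the values were seen. Scripts (Python 3.11.15, NumPy 2.4.6, pandas 2.3.3, SciPy 1.17.1, Matplotlib 3.10.9) were tested on simulated data.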

Additional observations from a re-analysis of the deposited data

How the results depend on the processing

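No paired analysis was possible because each condition had 1 library, and for the same reason no library could be left out. The main values were 751 protein-coding genes called higher and 652 lower, a protein-coding median of 0.06, a pseudogene median of 1.05 with 2176 called higher, bin medians of 0.78 in pericentromeres and −0.11 on arms, and part medians of −0.92 upstream and 0.16 in the interior. At 1.5-fold 3409 genes were higher and 2498 lower. After GC correction 230 were higher and 1058 lower, the protein-coding median was −0.18, the pseudogene median 0.63 with 1193 higher, arms −0.0805, upstream −0.32 and interior −0.14. With intergenic windows set to 0 (a shift of 0.79), 9945 were higher and 52 lower, the protein-coding median was 0.85, the pseudogene median 1.84 with 3648 higher, pericentromeres 1.58, arms 0.68, upstream −0.13 and interior 0.95. With all reads 451 were higher, the protein-coding median was 0.0488, the pseudogene median 0.81, pericentromeres 0.50 and interior 0.14. With at least 90% of reads above quality 0, chosen after seeing the data, 314 protein-coding genes and 314 pseudogenes were higher, with medians of 0.0294 and 0.65, pericentromeres 0.0691 and arms −0.13. Counting along the own strand gave a protein-coding median of 0.0398, interior 0.15 and upstream −1.09, midpoints gave 0.10, 0.18 and −0.79, and occupied positions gave 0.0337, 0.14 and −1.01, with arms −0.15 and pseudogenes 1.11. Plus-strand reads gave upstream −0.70, interior 0.17 and pseudogenes 1.00, and minus-strand reads −0.63, 0.15 and 0.99. Nuclear RPM gave a protein-coding median of 0.0463 and interior 0.14, and leaving out overlapping genes gave 0.0508. Minimums of 10 and 50 reads gave pseudogene medians of 1.08 and 0.99. After GC correction the direction turned for EC1.3 (−0.0113), EC1.4 (−0.10), AT5G33439 (−0.0423), AT2G47740 (−0.41), U4.11p (0.0476) and U5.11 (0.0167). The cause was not tested, apart from what each setting's construction changes.

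The main limits are the single library per condition, the different read lengths and lanes, and the relation with GC content. Input depth limits short genes. Over all measured protein-coding genes, the median interval spanned 0.39 on the log2 scale.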

Other observations

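Further product-name groups lay on both sides of the median of all protein-coding genes (0.06). Calmodulin-like genes, a group added after the values were seen, had a median log2 ratio of −0.40 (n = 18), cysteine-rich receptor-like kinase genes 0.40 (n = 36) and hypothetical proteins 0.34 (n = 206). After GC correction these medians were −0.26, 0.13 and −0.02, beside −0.18 for all protein-coding genes. Histone genes had a median log2 ratio of 0.01 (n = 56), with 0 called higher and 2 lower (3.57%). Heat shock protein genes had 0.19 (n = 66), with 3 higher (4.55%) and 1 lower (1.52%). SAUR genes had −0.06 (n = 78), with 1 higher (1.28%) and 5 lower (6.41%). Proteasome subunit genes had −0.15 (n = 36), with 1 higher (2.78%) and 0 lower. After GC correction these medians were −0.24, −0.23, −0.16 and −0.33. AGAMOUS-like and MADS-box genes had 0.19 (n = 120, 0.11 after GC correction). Of these, 17 were called higher and 8 lower, or 14.2% and 6.67%. Of all protein-coding genes, beside which each of these shares is read, 2.78% were called higher and 2.41% lower. Of 12 polyubiquitin genes, a group added after the values were seen, 5 were called higher (41.7%), with a median of 0.40 and −0.13 after GC correction.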
